A study of Mus musculus with 21 samples.

Results

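Glast+ cells from the retinas of C57BL/6 mice at postnatal day 28 (P28) were compared with Glast+ cells at postnatal day 7 (P7), the 2 ends of the age range over which this sort was profiled. The members are the 2 arrays titled as Glast+ cells at P28 and the 2 titled as Glast+ cells at P7, that is 4 of the 21 arrays of the series. Glast+ cells at P14 and P21 (5 arrays) give the levels between these ends, and the Notch1+ arrays of the series enter the normalization, the choice of probes and the estimate of spread. Cells were bound through Glast, the glutamate transporter encoded by Slc1a3, with a biotin-linked antibody and magnetic beads, and each sample held between 200000 and 500000 cells. The labels name no transgene, mutant allele, drug or injury for any group, and they do not say how many retinas were pooled in a sample. The submitters class Glast+ cells as precursors of Müller glia at the younger ages and as adult Müller glia at the older ones, and the comparison asks what differs between those stages.

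Müller glia are the radial glia of the retina, with processes that run through all of its layers. They are the last cell type that retinal progenitors produce, and they share many transcription factors with those progenitors, among them Sox2, Sox9 and the Notch effectors. In the adult retina they take up glutamate, convert it to glutamine, move water and potassium, help to regenerate the chromophore of cones and hold neurons in place, and after injury they become reactive.

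All values are log2 normalized intensities, on which a difference of 1 is a 2-fold change, and the scale ends at 16.00, where spots are saturated and differences are compressed. Of 34312 transcript probes, 67.4% and 71.6% were found on the P28 arrays, against 68.5% and 69.4% on the P7 arrays, and the number of arrays limits the precision. All Glast+ arrays were scanned on the same day, so P28 and P7 do not differ in scan day. The running numbers in the titles set the P28 arrays apart from all other Glast+ arrays, with the Notch1+ arrays between them. The titles do not explain these numbers, and any difference in handling that follows them cannot be told apart from age. The titles of both P28 arrays carry the same sample code, so they may be 1 sample on 2 arrays, although the design text speaks of independent replicates. The P28 pair differed by an SD of 0.213 over the kept probes, and the P7 pair differed by 0.339. Both P28 arrays were kept, and counts and calls that change when they are averaged to 1 sample are given both ways, where "averaged" means with P28 as a single sample. P-values measure the spread between these samples pooled over all groups of the series.

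The defining markers of the sort were examined first. Of the 9 Müller glia markers with a value, 9 were found on all P28 arrays and 9 on all P7 arrays. Slc1a3, the sorted antigen, measured 15.85 and 15.85 at P28, against 15.77 and 16.00 at P7, close to the top of the scale at both ages, and did not pass the test (difference -0.04, SE 0.50, adjusted p = 0.962). Markers of other cells were found too: 5 of 5 rod markers and 4 of 4 vessel markers were found on all arrays of both ages, as were 3 of 3 microglia markers. Over all genes tested, 10429 of 12612 were found on all arrays of both ages, so such counts alone set no marker apart. Gad2, Vsx1, Pou4f1 and Slc17a6, which mark amacrine, bipolar and ganglion cells, were not found on either P28 array, and Alas2 and Pou4f2 were not found on either P7 array. Rod, vessel and microglia markers thus gave signal in both groups. In such bulk samples fewer cells of a type and less RNA per cell cannot be told apart.

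Of 12612 genes tested, 4691 (37.2%) differed between P28 and P7 at an adjusted p under 0.05 (limma, Benjamini-Hochberg). At P28 2282 genes were higher (18.1%) and 2409 were lower (19.1%). With the P28 arrays averaged to 1 sample 1483 were higher (11.8%) and 1514 lower (12.0%), 2997 in all (23.8%). The increases reached further than the decreases: 647 genes were over 4-fold higher and 267 over 4-fold lower, and 75 were over 16-fold higher and 14 over 16-fold lower. The split depends on scaling: of the calls 48.6% were higher here, 21.5% with median scaling, which moves the median of all genes by -0.286, and 60.2% with cyclic loess. The median difference over all genes was 0.00, and the medians of the gene lists below are read beside it.

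**Figure D1:**
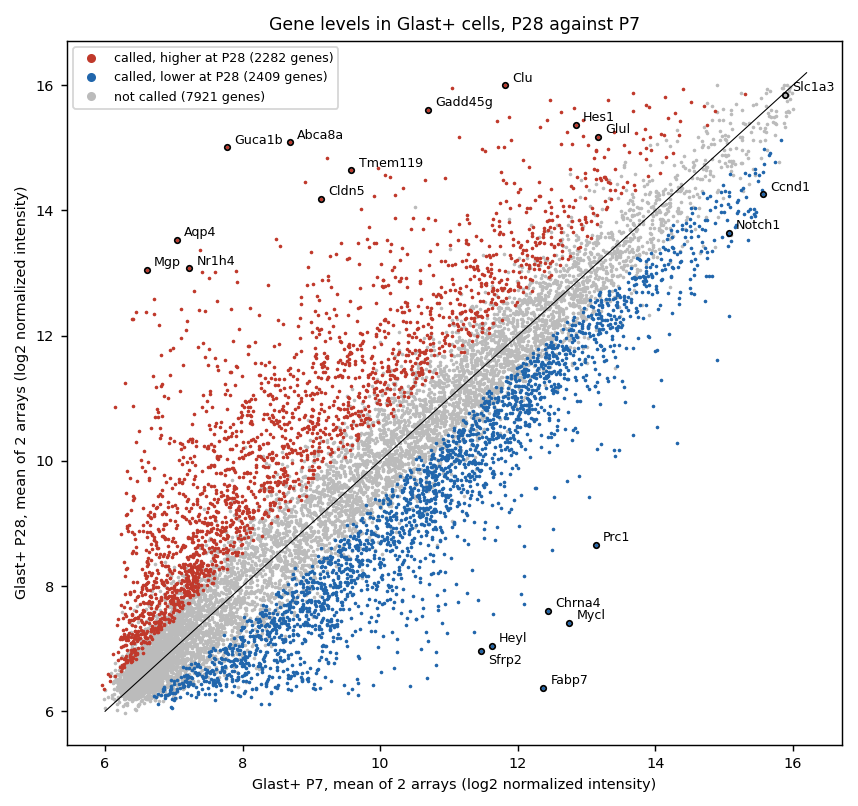
Each point is a gene, with its mean log2 normalized intensity in the 2 P28 arrays (vertical) and in the 2 P7 arrays (horizontal). Red genes were called higher at P28 (2282), blue genes lower (2409) and grey genes were not called (7921). The line marks equal levels. Labelled genes are described in the text, with Abca8a, Aqp4, Mgp and Guca1b far above the line and Fabp7, Mycl, Heyl and Prc1 far below it.

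**Figure D2:**
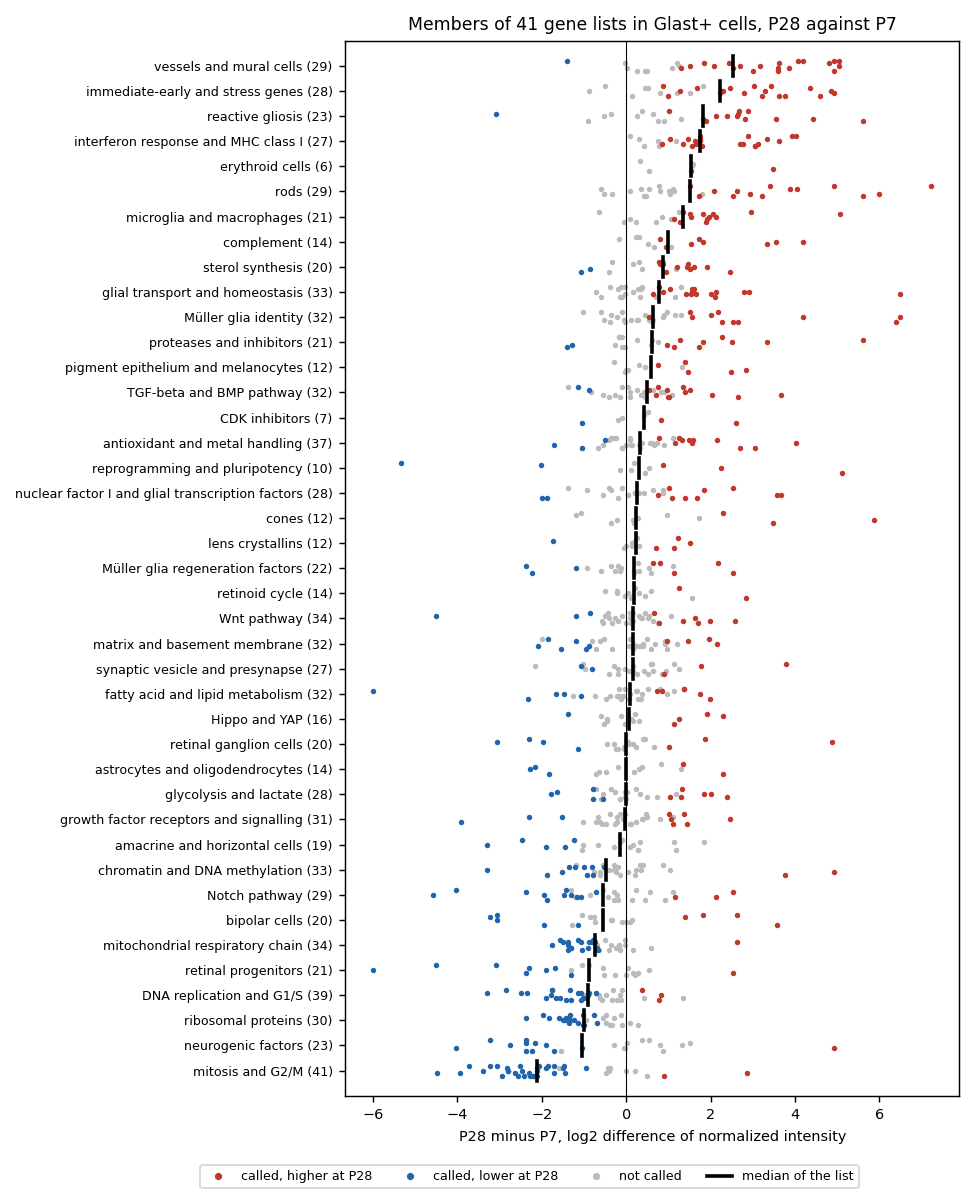
Each point is a member of a gene list, placed by its log2 difference of P28 minus P7, and the black bar is the median of the list, with the number of members tested in brackets. Lists run from vessels and mural cells (median 2.54) at the top to mitosis and G2/M (median -2.11) at the bottom. Red and blue points were called higher and lower at P28, and grey points were not called.

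Among genes that mark Müller glia, a subset was far higher at P28, while several genes commonly used to identify these cells were high at both ages. Of 32 members tested, 11 were higher at P28, 0 were lower and the median difference was 0.62; averaged, 10 were higher. The count depends on the setting: with median scaling 7 were higher and 4 lower, in a fit of the Glast+ arrays alone 17 and 2, and in a fit of the 4 compared arrays alone 21 and 5. Abca8a, a lipid transporter of the ABC family, measured 15.07 and 15.12 at P28, against 8.61 and 8.77 at P7, 84.5-fold higher (difference 6.40, SE 0.38, adjusted p = 1.07e-08). Clu, which encodes the secreted chaperone clusterin, was saturated on both P28 arrays and measured 11.78 and 11.86 on the P7 arrays, so that it was at least 18.1-fold higher (adjusted p = 1.29e-06). Glul, the glutamine synthetase that Müller glia use to clear glutamate, measured 15.13 and 15.23 at P28, against 13.33 and 13.02 at P7, a 4.01-fold increase (difference 2.005, SE 0.45, adjusted p = 0.00233). Timp3, an inhibitor of matrix proteases, rose by 2.27 (adjusted p = 5.32e-06), and Slc14a1, a urea transporter, rose by 2.18 (adjusted p = 0.00762). In each of these 5 genes both P28 arrays lay above both P7 arrays; over all genes tested, the arrays of the 2 ages did not overlap in 79.9%, so that an absence of overlap alone sets no gene apart.

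Other genes by which Müller glia are recognised were already high at P7. Rlbp1, the retinaldehyde-binding protein of the visual cycle, measured 15.14 and 15.08 at P28, against 14.60 and 14.75 at P7 (difference 0.44, SE 0.59, adjusted p = 0.597). Dkk3, a secreted protein of the Dickkopf family, measured 15.95 and 15.95 at P28, against 15.88 and 15.81 at P7, and Apoe, a lipid carrier, measured 15.71 and 15.66 at P28, against 15.30 and 15.55 at P7; neither passed the test (adjusted p = 0.824 and 0.445). These 3 genes lie in the upper part of the scale, where a difference can be compressed, although none of their spots was saturated at P28 or P7. The P28 levels of Glul, Abca8a and Hes1, which were called higher, also lie there, so their folds can be compressed too. The intermediate filament gene Vim was -0.51 apart on the log2 scale (adjusted p = 0.0581). The transcription factor Sox9 measured 15.29 and 15.22 at P28, against 15.61 and 15.60 at P7 (adjusted p = 0.525). Its relative Sox2 measured 14.42 and 14.34 at P28, against 13.88 and 13.78 at P7 by its brightest probe (difference 0.55, adjusted p = 0.494), while another Sox2 probe gave -0.86, so its direction is not settled.

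Genes of glial transport and homeostasis followed the same division. Of 33 members, 16 were higher at P28 and 0 lower (13 higher averaged and 6 with median scaling), with a median of 0.78. Aqp4, the water channel of glial endfeet, measured 13.54 and 13.53 at P28, against 6.81 and 7.28 at P7, an 89.9-fold increase (difference 6.49, SE 0.39, adjusted p = 1.07e-08). Its 2 other probes gave -0.15 and 4.09. Dtna, which encodes dystrobrevin of the complex that anchors Aqp4, rose by 2.90 (adjusted p = 1.14e-05, with 3 other probes from 0.70 to 2.40). Trpv4, a channel that senses cell swelling, rose by 2.78 (adjusted p = 2.58e-07). Slc38a3, which carries glutamine out of glia, rose by 1.66 (adjusted p = 0.000589). The glucose transporter gene Slc2a1 measured 14.15 and 13.95 at P28, against 14.203 and 14.19 at P7 and the gap junction gene Gja1 measured 11.35 and 11.62 at P28, against 10.95 and 11.27 at P7, and neither passed the test (adjusted p = 0.677 and 0.563). The potassium channel gene Kcnj10 has no probe matched by accession and no value here.

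Some of these genes were near their P28 level by P14 and others were not. Aqp4 averaged 7.04 at P7, 13.19 at P14, 13.26 at P21 and 13.53 at P28, and Glul averaged 13.17, 14.82, 14.77 and 15.18 at the same ages. Abca8a averaged 8.69, 13.80, 13.97 and 15.09, with P28 above each of the younger ages. Dtna averaged 7.99 at P7, 9.41 at P14, 9.92 at P21 and 10.89 at P28, and Trpv4 averaged 6.94, 8.27, 8.44 and 9.73 at the same ages, so that less of their difference was present at P14. The differences of P14, P21 and P28 from P7 share the P7 arrays and were not tested against each other. Of 14 retinoid cycle genes 2 were higher (1 averaged) and 0 lower, a share near that of all genes, namely Rgr (2.83, adjusted p = 0.000123), an opsin of Müller glia and pigment epithelium, and Rdh5 (1.26, adjusted p = 0.0101, or 0.0524 averaged).

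**Figure D3:**
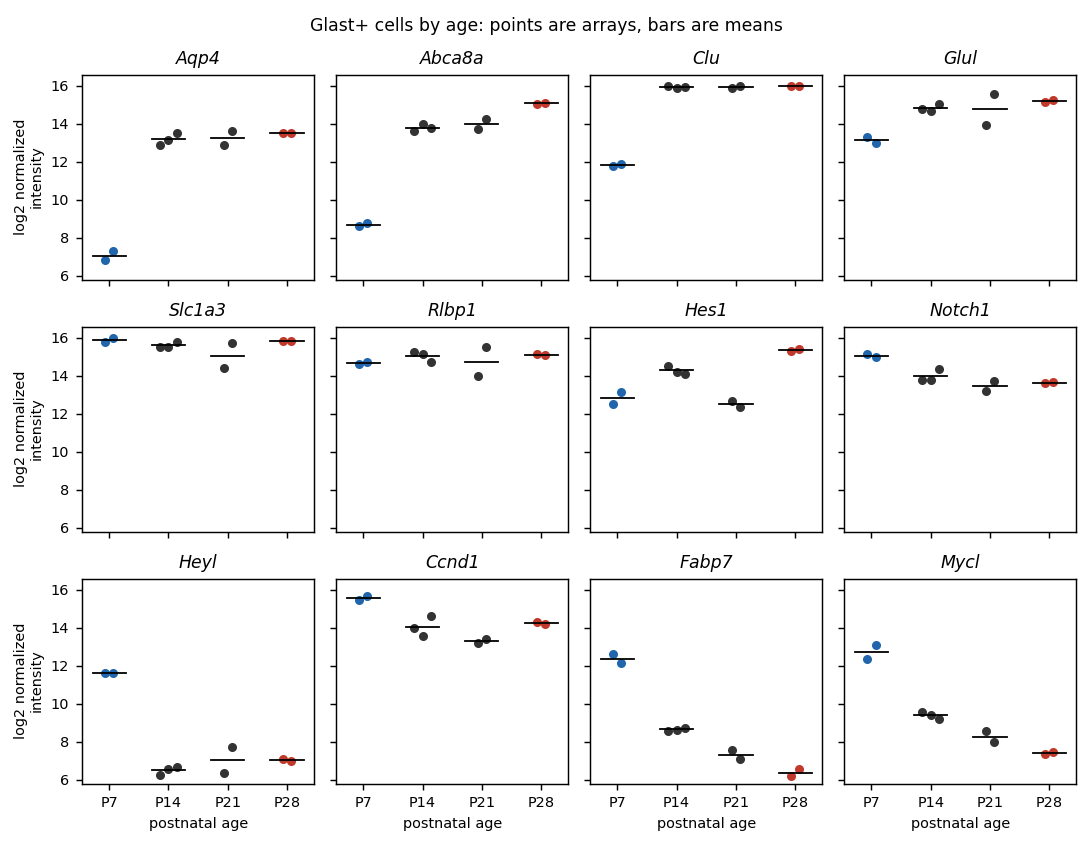
Log2 normalized intensity (vertical) of 12 genes in every Glast+ array at P7, P14, P21 and P28 (horizontal); points are arrays, bars are group means, red marks P28 and blue marks P7. Aqp4, Abca8a and Clu are low only at P7, Heyl is high only at P7, and Fabp7 and Mycl step down with each age. Slc1a3 and Rlbp1 lie in the upper part of the scale at all ages and are lowest on P21 replicate 1 (14.39 and 13.99).

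Genes of retinal progenitors were lower at P28. Of 21 members, 8 were lower and 1 was higher (6 and 1 averaged; 13 lower in a fit of the 4 compared arrays), with a median of -0.88. Fabp7, a fatty acid binding protein of radial glia and progenitors, measured 6.21 and 6.54 at P28, against 12.61 and 12.14 at P7 and was not found on either P28 array, so that it was at least 63.7-fold lower (adjusted p = 0.000346). For this and other genes named as not found at an age, the fold is that of the measured levels, taken there from undetected spots. Sfrp2, a secreted Wnt antagonist of progenitors, measured 7.04 and 6.89 at P28, against 11.41 and 11.50 at P7 (difference -4.50, SE 0.60, adjusted p = 3.13e-05). Nes, the intermediate filament gene nestin, fell to 9.43 at P28, against 12.52 at P7 (adjusted p = 2.2e-06, with another probe at 0.04). Fgf15, a growth factor gene of dividing progenitors, was 4.97-fold lower (adjusted p = 0.00137). Eye field factors that Müller glia retain did not pass the test: Pax6 differed by 0.29 (adjusted p = 0.782, with another probe at -1.71), Rax by 0.04 (adjusted p = 0.964) and Lhx2 by -0.55 (adjusted p = 0.372). The 1 member called higher was Hes1.

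In the Notch pathway the ligand genes Dll1 and Dll3, the receptor gene Notch1 and several effectors were lower at P28, while Hes1 was higher. Notch receptors are cut after binding Delta or Jagged ligands on a neighbouring cell and switch on Hes and Hey repressors, which keep progenitors undifferentiated and favour glial fate. Of 29 members, 11 were lower and 3 higher (10 and 2 averaged), with a median of -0.54. Among ligands Dll3 measured 6.43 and 6.38 at P28, against 10.05 and 10.83 at P7 and was not found on either P28 array, at least 16.4-fold lower (adjusted p = 0.000969), and Dll1 fell by 2.38 (adjusted p = 0.00109), while Dll4, Jag1 and Jag2 did not pass the test (adjusted p = 0.63, 0.13 and 0.641). The receptor gene Notch1 measured 13.61 and 13.67 at P28, against 15.15 and 14.99 at P7 (difference -1.43, SE 0.23, adjusted p = 0.000165). Notch4, a receptor gene known from endothelium, rose by 2.12 (adjusted p = 0.00134), with another probe at 0.42. Vessel genes were also higher on the P28 arrays, and their part in the Notch4 values was not tested. Mfng, which encodes a glycosyltransferase that tunes Notch receptors, fell by 1.94 (adjusted p = 2.44e-06).

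The Hes and Hey effectors did not move together. Heyl measured 7.09 and 6.99 at P28, against 11.64 and 11.61 at P7, 23.9-fold lower (difference -4.58, SE 0.52, adjusted p = 6.72e-06). Hey1 fell by 1.87 (adjusted p = 0.00177), and Nrarp, a feedback inhibitor of the pathway, fell by 1.47 (adjusted p = 0.000338). Hes5 measured 12.54 and 12.45 at P28, against 13.69 and 13.92 at P7 and did not pass the test (adjusted p = 0.176). Hes1 measured 15.33 and 15.39 at P28, against 12.52 and 13.16 at P7, a 5.74-fold increase (difference 2.52, SE 0.29, adjusted p = 6.4e-06). Its 2 P28 arrays lay above both P7 arrays, as in 2281 of the 2282 genes called higher. Its mean level was 12.84 at P7, 14.29 at P14, 12.53 at P21 and 15.36 at P28, so that P21 lay nearest to P7. The list of immediate-early and stress genes was also lower at P21 than at P14 and P28, by the medians given with it, and its part in the Hes1 values was not tested.

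Neurogenic factors were lower as well. Of 23 members, 11 were lower and 1 was higher (9 and 1 averaged; 7 and 2 with cyclic loess), with a median of -1.06. Insm1, a factor of newly formed neurons, measured 6.65 and 6.33 at P28, against 9.57 and 8.16 at P7 (difference -2.37, SE 0.53, adjusted p = 0.00219), and Olig2 fell by 2.15 (adjusted p = 0.000717), with another probe at 0.30. Hes6, which is expressed in cells that enter neurogenesis, measured 12.33 and 12.31 at P28, against 15.03 and 15.12 at P7 (adjusted p = 0.00128). Otx2, a factor of photoreceptor and bipolar precursors, was 9.35-fold lower (adjusted p = 0.00143). The member called higher was Gadd45g, which is also a stress gene and is described with those.

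Genes of the cell cycle were lower at P28, and the mitosis list had the lowest median of the 41 lists. Of 41 mitosis genes 31 were lower at P28, also 31 averaged, against 19.1% lower over all genes, and their median difference was -2.11. Prc1, which bundles the microtubules of the central spindle, measured 8.54 and 8.77 at P28, against 13.05 and 13.22 at P7, 22.3-fold lower (difference -4.48, SE 0.41, adjusted p = 7.62e-07). Ccna2, encoding cyclin A, measured 7.98 and 8.34 at P28, against 12.21 and 11.97 at P7 (adjusted p = 3.07e-07). Top2a, the topoisomerase that untangles chromosomes, measured 6.65 and 6.33 at P28, against 9.15 and 9.43 at P7 (adjusted p = 5.67e-07). Kif23, a kinesin of cytokinesis, was 9.3-fold lower (adjusted p = 6.09e-07). For these 4 genes the P28 and P7 arrays did not overlap, as in all 2409 genes called lower, so this sets none of them apart. Cdk1, the mitotic kinase, fell by 3.40 and Cdc20, an activator of the anaphase-promoting complex, fell by 3.05 (adjusted p = 8.73e-06 and 3.22e-06), although other probes of these genes gave -0.12 and 0.05. Members called higher were Spc25, a kinetochore gene (2.86, adjusted p = 1.03e-06), and Cdc25b (0.90, adjusted p = 0.017, or 0.0741 averaged). No probe matched Mki67 by accession, so it has no value here.

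Mitosis genes share promoter elements, the CCAAT box bound by NF-Y and the cell cycle homology region (CHR) bound by the DREAM and B-MYB complexes, and the promoters of 4 members that fell are shown to let a reader see them. Each runs over the 250 bases before the first listed transcription start, from RefSeq on GRCm38.p6, 5′ to 3′ on the gene's strand. Capitals mark CCAAT or its reverse complement ATTGG, and TTTGAA (the CHR) or its reverse complement TTCAAA. Cdk1 lies at chr10:69352913-69353162 on the minus strand, Cdc20 at chr4:118437344-118437593 on the minus strand, Ccnb1 at chr13:100786487-100786736 on the minus strand and Top2a at chr11:99024190-99024439 on the minus strand.
Cdk1: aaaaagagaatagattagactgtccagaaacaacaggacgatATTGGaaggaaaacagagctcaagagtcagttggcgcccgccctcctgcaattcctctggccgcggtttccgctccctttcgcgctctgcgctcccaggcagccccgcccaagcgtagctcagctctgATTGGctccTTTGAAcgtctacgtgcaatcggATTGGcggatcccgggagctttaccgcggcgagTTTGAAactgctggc
Cdc20: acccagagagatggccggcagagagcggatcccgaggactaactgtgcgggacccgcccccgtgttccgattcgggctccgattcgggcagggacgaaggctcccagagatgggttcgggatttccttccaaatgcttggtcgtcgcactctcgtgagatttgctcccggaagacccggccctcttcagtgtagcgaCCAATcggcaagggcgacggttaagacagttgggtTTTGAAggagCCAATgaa
Ccnb1: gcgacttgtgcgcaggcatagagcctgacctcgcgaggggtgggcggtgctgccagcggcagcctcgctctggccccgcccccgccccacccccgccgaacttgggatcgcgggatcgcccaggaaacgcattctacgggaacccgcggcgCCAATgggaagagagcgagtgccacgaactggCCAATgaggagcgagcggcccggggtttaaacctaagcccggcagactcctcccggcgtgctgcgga
Top2a: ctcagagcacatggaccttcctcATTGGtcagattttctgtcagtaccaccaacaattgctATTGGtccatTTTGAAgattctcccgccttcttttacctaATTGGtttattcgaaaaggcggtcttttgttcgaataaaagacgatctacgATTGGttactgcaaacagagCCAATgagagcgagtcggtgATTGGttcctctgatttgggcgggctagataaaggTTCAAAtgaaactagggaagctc

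In these windows Cdk1 holds 5 matches, Cdc20 holds 3, Ccnb1 holds 2 and Top2a holds 8. The Ccnb1 window holds CCAAT matches and no TTTGAA on either strand. Of 25 mitosis genes called lower that have a listed promoter, 18 (72%) hold a CCAAT match on either strand and 10 (40%) hold a CHR match. Of all 34 tested mitosis genes with a promoter, 24 (70.6%) and 11 (32.4%) hold them. Both of the 2 members called higher hold a CCAAT match and 0 hold a CHR match. Among 10037 tested genes with a promoter the shares are 36.4% and 11.4%, and among all 27025 promoters they are 34.5% and 16.3%. A match is a run of letters, not a measured binding site. Ccnb1, the gene of cyclin B, fell by 2.80 (adjusted p = 8.48e-06).

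DNA replication genes were lower as well, though less uniformly. Of 39 members 21 were lower and 3 higher (15 and 0 averaged, 10 and 2 with cyclic loess), with a median of -0.90. Mcm7, a subunit of the replicative helicase, measured 9.11 and 8.93 at P28, against 11.42 and 11.62 at P7 (difference -2.50, SE 0.24, adjusted p = 1.2e-06). Its partner Mcm2 fell by 2.35 (adjusted p = 6.47e-05), while Mcm4 differed by -0.11 (adjusted p = 0.707). Rrm2, a subunit of ribonucleotide reductase, was 7.18-fold lower by its brightest probe (adjusted p = 9.08e-06), while its 3 other probes gave -0.20 to 0.21. Pcna, the sliding clamp, differed by -0.31 and did not pass the test (adjusted p = 0.255). Ccnd1, the cyclin that drives progenitors into S phase, measured 14.33 and 14.19 at P28, against 15.45 and 15.68 at P7, 2.48-fold lower (difference -1.31, SE 0.31, adjusted p = 0.00334), and its partner kinase gene Cdk4 fell by 2.37 (adjusted p = 2.99e-07). Ccnd1 stayed near the upper end of the scale at P28. Of 7 CDK inhibitor genes, Cdkn1a (p21) rose by 2.59 (adjusted p = 0.00508), Cdkn2d rose by 0.83 (adjusted p = 0.0256, or 0.0977 averaged), and Cdkn2c fell by 1.06 (adjusted p = 0.0113, or 0.0561 averaged) with another probe at 0.71.

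By P14 the cell cycle lists lay near their P28 level. The median difference from P7 over the mitosis list was -1.71 at P14, -1.95 at P21 and -2.11 at P28. Over the replication list it was -0.79, -1.16 and -0.90 at these ages. The mean level of the mitosis list was 7.77 and 7.75 on the P28 arrays, against 9.48 and 9.68 on the P7 arrays.

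**Figure D4:**
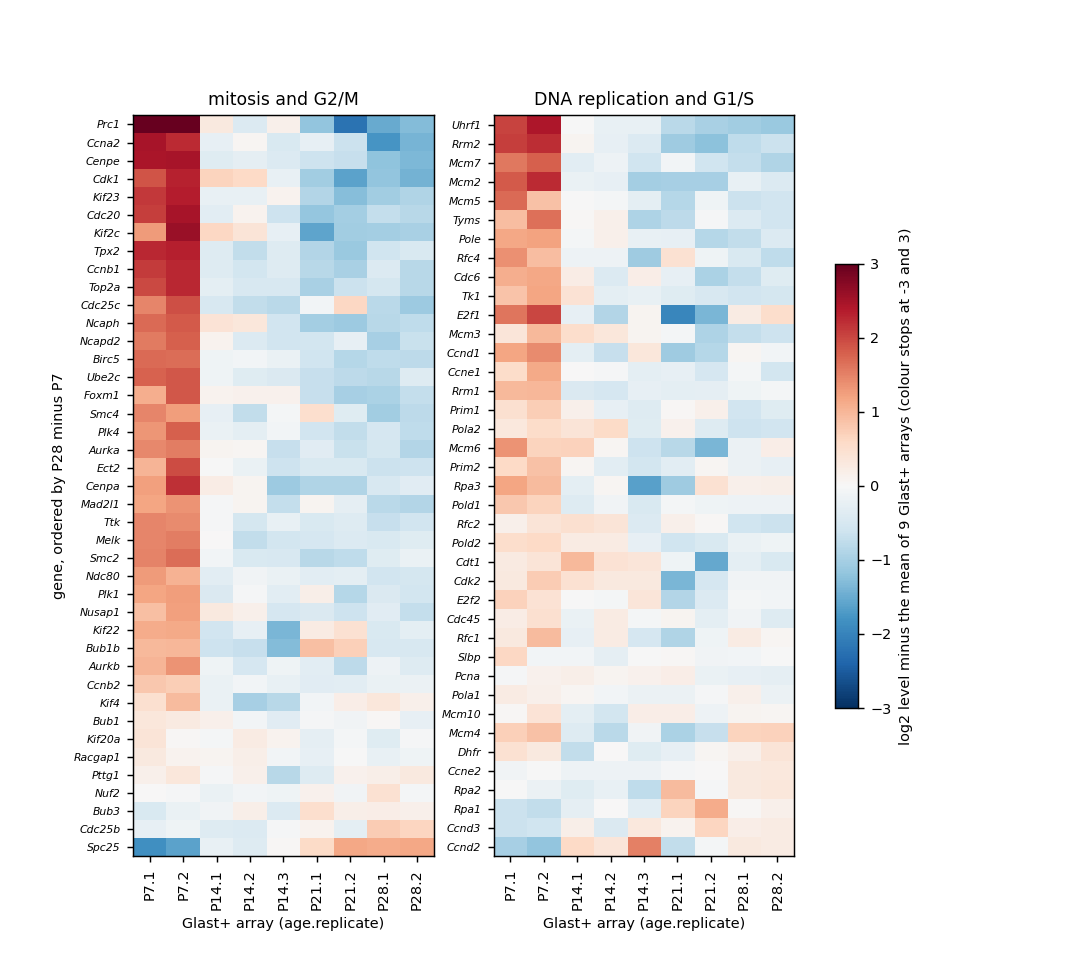
Rows are genes of the mitosis list (left) and the replication list (right), ordered by P28 minus P7, and columns are the 9 Glast+ arrays by age. Colour is the log2 level minus the gene's mean over the 9 arrays, red above and blue below it, and stops at -3 and 3. In most rows the 2 P7 columns are red and the columns of P14, P21 and P28 are pale or blue, while Spc25 and Ccnd2 run the other way.

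Among genes of chromatin and DNA methylation, several that go with replication were lower. Of 33 members 10 were lower and 2 higher (6 and 2 averaged; 16 lower with median scaling, 6 with cyclic loess, 4 without P7 replicate 1 and 5 without P28 replicate 2), with a median of -0.48. Dnmt1, which copies DNA methylation at replication forks, measured 9.44 and 9.47 at P28, against 11.01 and 10.95 at P7 (difference -1.52, SE 0.21, adjusted p = 4.83e-05). Uhrf1, which brings Dnmt1 to those forks, measured 6.98 and 6.92 at P28, against 10.06 and 10.45 at P7, 9.88-fold lower (adjusted p = 2.45e-06). Tdg, a glycosylase that removes oxidised methylcytosine, fell by 1.87 (adjusted p = 6.56e-06), with another probe at -0.43. The deacetylase gene Hdac2 fell by 1.35 (adjusted p = 0.00011), and Ezh2, the methyltransferase of Polycomb complex PRC2, fell by 1.21 (adjusted p = 0.00929). The de novo methyltransferase gene Dnmt3a differed by 0.22 (adjusted p = 0.586), with another probe at -0.86. The members called higher were Gadd45b and Gadd45g, which take part in stress signalling and DNA demethylation.

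Transcription factors of glia and of pluripotency gave few shared directions. The nuclear factor I genes, which in mouse retina are needed for Müller glia to form and to stay quiescent, did not pass the test: Nfia differed by 0.30, Nfib by -0.94 and Nfix by -0.19 (adjusted p = 0.539, 0.0582 and 0.789). The 2 other Nfia probes gave -0.51 and -0.10. In the list that holds them and circadian factors, 9 of 28 members were higher and 2 lower (5 and 2 averaged, 3 and 6 with median scaling). Id1, an inhibitor of proneural factors, measured 13.89 and 13.88 at P28, against 10.29 and 10.13 at P7 (difference 3.67, SE 0.60, adjusted p = 0.000196). Among clock genes Bhlhe40 rose by 3.58 and Dbp by 1.85, and Arntl fell by 1.99 (adjusted p = 7.77e-05, 0.000181 and 0.00591); the labels do not give the hour at which retinas were taken. Among reprogramming genes Mycl, a Myc relative of progenitors, measured 7.36 and 7.47 at P28, against 12.39 and 13.12 at P7, 40.3-fold lower (difference -5.33, SE 0.53, adjusted p = 1.82e-06). Klf4 rose by 2.25 (adjusted p = 0.00742), and Esrrb, which in mouse retina is a rod gene, rose by 5.12 (adjusted p = 5.42e-05). Of 22 genes that act in Müller glia regeneration, 5 were higher (3 averaged and 2 with median scaling), among them Hes1 and Hbegf (2.18, adjusted p = 0.00168), and 3 were lower, among them Insm1 and Ctnnb1 (-1.19, adjusted p = 0.00493). These shares, 22.7% higher and 13.6% lower, stand beside 18.1% and 19.1% over all genes.

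Genes of the translation machinery and of mitochondrial respiration were lower at P28. Of 30 ribosomal protein genes 17 were lower and 0 were higher (11 lower averaged and 10 with cyclic loess), with a median of -1.01. Rps24 measured 8.43 and 8.37 at P28, against 10.64 and 10.91 at P7 (difference -2.37, SE 0.28, adjusted p = 1.1e-05), Rpl4 fell by 1.96 (adjusted p = 0.000142) and Rpl32 fell by 1.49 (adjusted p = 0.000207). Ribosomal protein genes have many processed copies in the genome, so their probes may read more than 1 locus. Of 34 respiratory chain genes 19 were lower and 1 was higher (16 and 1 averaged; 12 lower with cyclic loess and 12 without P7 replicate 2), with a median of -0.73. Ndufb5 of complex I measured 10.71 and 10.93 at P28, against 12.55 and 12.61 at P7 (difference -1.76, SE 0.32, adjusted p = 0.000484), and Cox5a of complex IV fell by 1.38 (adjusted p = 0.000105). Cox5b fell by 1.06 (adjusted p = 0.000337) by its brightest probe, while another probe gave 1.38. The member called higher was Ndufa2 (2.62, adjusted p = 0.00312), at 13.30 and 13.40 at P28, against 11.46 and 9.99 at P7. Its P7 arrays lay far apart, and both lay below the P28 arrays.

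Sterol synthesis genes were higher at P28, with medians near 0 at P14 and P21. Of 20 members 11 were higher and 2 lower (6 and 1 averaged, 2 and 2 with median scaling). The median difference from P7 was -0.07 at P14, 0.11 at P21 and 0.88 at P28. Msmo1, an oxidase of the late pathway, measured 12.70 and 12.64 at P28, against 10.97 and 10.57 at P7 (difference 1.90, SE 0.25, adjusted p = 2.99e-05). Hmgcs1, which makes the precursor of mevalonate, rose by 1.52, and Hsd17b7 rose by 1.20 (adjusted p = 0.000228 and 5.06e-05). Nsdhl, which acts beside Hsd17b7 in the pathway, fell by 1.08 (adjusted p = 0.00501), with its 2 other probes at -0.34 and 0.41. Pmvk fell by 0.85, a call that ended when the P28 arrays were averaged (adjusted p = 0.0395, or 0.128 averaged).

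Fatty acid and sugar metabolism had members in both directions, at shares near those of all genes (18.1% higher and 19.1% lower). Among 32 lipid genes 6 were higher and 5 lower (4 and 4 averaged, 2 and 7 with median scaling). Besides Fabp7, the sterol exporter gene Abca1 fell by 2.32 (adjusted p = 9.67e-05) and Fabp5 was at least 2.77-fold lower, not found at P28 (adjusted p = 0.000338). The desaturase gene Scd1 rose by 1.98 and Nr1h3, the sterol sensor LXRα, rose by 1.75 (adjusted p = 3.95e-05 and 0.000567). Of 28 glycolysis genes 6 were higher and 5 lower (4 and 2 averaged, 3 and 8 with median scaling), with a median of -0.01. The glycogen phosphorylase genes Pygb and Pygm, which release glucose from the glycogen that Müller glia store, rose by 2.38 and 2.01 (adjusted p = 0.000297 and 0.000841). Hexokinase gene Hk2 rose by 1.84 (adjusted p = 0.000335), while Pgam1 fell by 1.65 (adjusted p = 0.00492) and the kinase gene Pdk3 fell by 1.77 (adjusted p = 0.000219). In the list of antioxidant and metal-handling genes, 11 of 37 were higher and 3 lower (8 and 1 averaged, 5 and 7 with median scaling; 6 higher without P28 replicate 1 and 6 without P7 replicate 2). Gstt1, a glutathione transferase, measured 14.26 and 14.23 at P28, against 10.06 and 10.37 at P7 (difference 4.03, SE 0.33, adjusted p = 2.2e-07), the iron carrier gene Trf rose by 3.05 (adjusted p = 5.99e-05) and the glutathione reductase gene Gsr fell by 1.04 (adjusted p = 0.00206).

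Stress, reactivity and immune response genes were higher at P28. Of 28 immediate-early and stress genes 19 were higher and 0 were lower (15 higher averaged), against 18.1% higher over all genes. Their median difference from P7 was 2.14 at P14, 0.72 at P21 and 2.23 at P28. Gadd45g measured 15.59 and 15.63 at P28, against 10.42 and 10.98 at P7, 30.1-fold higher (difference 4.91, SE 0.90, adjusted p = 0.000523). Atf3, a factor induced by many stresses, measured 15.57 and 15.43 at P28, against 11.72 and 12.04 at P7 (difference 3.62, SE 0.38, adjusted p = 2.67e-06). The heat shock genes Hspb1 and Hspa1a rose by 4.35 and 4.85 (adjusted p = 2.34e-06 and 3.82e-05), with another Hspb1 probe at 0.16. Nfkbiz, an NF-κB cofactor, rose by 3.22 (adjusted p = 5.34e-06). Fos measured 15.74 and 15.67 at P28, against 15.04 and 15.32 at P7 and did not pass the test (adjusted p = 0.347), and Egr1 was saturated on both P28 arrays and near the top of the scale on both P7 arrays.

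Of 23 genes of reactive gliosis 13 were higher and 1 was lower, also averaged, with a median of 1.82. Serpina3n, a protease inhibitor of reactive astrocytes, measured 13.14 and 12.90 at P28, against 7.23 and 7.58 at P7, 49.1-fold higher (difference 5.62, SE 0.54, adjusted p = 1.29e-06). C4b, a complement component, rose by 3.54 by its brightest probe (adjusted p = 6.27e-07), while its 2 other probes gave 0.22 and 0.46. Edn2, an endothelin gene that photoreceptors make after damage, rose by 2.62 (adjusted p = 9.91e-07). Socs3, an inhibitor of cytokine signalling, rose by 2.82 (adjusted p = 5.35e-05). Cntf, a cytokine gene, rose by 2.67 by its brightest probe (adjusted p = 9.91e-07), while another probe gave -0.61. Gfap, the classical mark of reactive Müller glia and of astrocytes, measured 8.42 and 8.19 at P28, against 6.97 and 7.03 at P7 and did not pass the test (difference 1.30, SE 0.63, adjusted p = 0.115), with another probe at -0.03. The member called lower was Nes.

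Interferon and antigen presentation genes were higher with no member lower. Of 27 members 21 were higher, also 21 averaged and 13 with median scaling, with medians of 1.38 at P14, 1.38 at P21 and 1.74 at P28. H2-K1, a heavy chain of MHC class I, measured 12.19 and 12.07 at P28, against 8.90 and 9.26 at P7, 8.27-fold higher (difference 3.05, SE 0.30, adjusted p = 1.41e-06). Psmb9, a subunit of the immunoproteasome, measured 11.48 and 11.50 at P28, against 8.48 and 8.42 at P7 (adjusted p = 5.49e-05), and Oasl2, an interferon-induced gene, rose by 3.61 (adjusted p = 3.36e-05). H2-K1 and its relatives are alike in sequence, so a probe may read several of them. Of 14 complement genes 8 were higher, 5 of them averaged and 3 with median scaling, and besides Clu and C4b they include C3, the central component, at 10.78 and 10.82 at P28, against 7.35 and 7.60 at P7 (difference 3.33, SE 0.50, adjusted p = 9.15e-05). Microglia and vessels, whose markers are given below, express many genes of these lists, and their part in these differences was not tested.

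Signalling genes were divided. Over all genes 18.1% were higher and 19.1% lower. In the Wnt list 20.6% were higher and 8.8% lower, and in the growth factor list 19.4% and 9.7%. Of 34 Wnt pathway genes 7 were higher and 3 lower (7 and 2 averaged, 6 and 7 with median scaling). Frzb, a secreted Wnt antagonist, rose by 2.58, the receptor gene Fzd5 rose by 1.98 with another probe at -0.12, and the ligand gene Wnt5a rose by 1.35 (adjusted p = 0.000227, 4.46e-05 and 0.00034). Of 32 TGF-beta and BMP genes 12 were higher and 2 lower, 6 and 2 averaged and 4 and 5 with median scaling. The receptor gene Tgfbr2 measured 13.52 and 13.41 at P28, against 10.61 and 11.04 at P7 (difference 2.64, SE 0.46, adjusted p = 0.000328), with other probes from 0.74 to 2.46. The signal carriers Smad4 and Smad5 fell by 0.88 and 1.13 (adjusted p = 0.000883 and 0.000242). Of 31 growth factor genes 6 were higher and 3 lower (5 and 3 averaged, 1 and 7 with median scaling). Kit, a receptor tyrosine kinase, measured 8.50 and 8.65 at P28, against 12.62 and 12.37 at P7, 15.1-fold lower (difference -3.92, SE 0.33, adjusted p = 2.94e-07). Fgf1 was not found on either P7 array and was at least 5.54-fold higher at P28 (adjusted p = 5.62e-07). Il6st, the shared receptor chain of the interleukin 6 family, rose by 1.11 (adjusted p = 0.000967) by its brightest probe, while another gave -0.83.

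Among 16 Hippo pathway genes 4 were higher and 1 was lower (2 and 0 averaged, 1 and 4 with median scaling). The YAP target Ccn2 rose by 1.91 and the receptor gene Axl by 1.25 (adjusted p = 0.00128 and 0.00671). Wwtr1 (TAZ) fell by 1.38 (adjusted p = 0.0138), a call that ended when averaged, and its 2 other probes gave -0.38 and 0.43. Basement membrane genes gave 4 higher and 6 lower of 32 (1 and 4 averaged, 2 lower with cyclic loess), shares no higher than those of all genes. For the Hippo list the shares were 25% higher and 6.25% lower, beside 18.1% and 19.1% over all genes. The laminin chain genes Lama1 and Lamb1 fell by 2.10 and 1.85 (adjusted p = 0.000503 and 0.00217), and the proteoglycan gene Bgn rose by 2.14 (adjusted p = 0.00789). Of 21 proteases and inhibitors 9 were higher and 2 lower (9 and 0 averaged, 5 higher with median scaling), and Adamts5, which cleaves aggrecan, measured 12.39 and 12.41 at P28, against 8.96 and 9.16 at P7 (difference 3.34, SE 0.34, adjusted p = 1.92e-06).

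Photoreceptor genes were higher at P28, although their level at P7 differed between arrays. Of 29 rod genes 14 were higher and 0 were lower (10 higher averaged, 7 without P7 replicate 2, 9 with median scaling), with a median of 1.52. Guca1b, an activator of guanylate cyclase in outer segments, measured 15.02 and 15.00 at P28, against 7.88 and 7.67 at P7, 150.5-fold higher (difference 7.23, SE 0.81, adjusted p = 5.49e-06). Gnat1, rod transducin, measured 15.96 and 15.96 at P28, against 11.40 and 10.70 at P7 (adjusted p = 4.06e-05, with another probe at 7.44), and Slc24a1, the rod cation exchanger, measured 13.43 and 13.31 at P28, against 7.93 and 6.84 at P7 (adjusted p = 0.00012). In Slc24a1 P7 replicate 1 lay more than 1 above P7 replicate 2, and still below both P28 arrays. The rod factor genes Nrl and Crx measured 14.09 and 13.95 at P28, against 14.26 and 12.18 at P7 and 12.49 and 11.69 at P28, against 12.17 and 10.93 at P7; their arrays overlapped between the ages and they did not pass the test (adjusted p = 0.393 and 0.618).

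Some rod genes hold a homeodomain site bound by CRX and OTX2, and the promoters of 3 members that rose and hold it are shown. They cover the 250 bases before the first listed start (RefSeq, GRCm38.p6), 5′ to 3′ on the gene's strand, with TAATCC or its reverse complement GGATTA in capitals. Guca1a lies at chr17:47400607-47400856 on the minus strand, Sag at chr1:87803430-87803679 on the plus strand and Abca4 at chr3:122044210-122044459 on the plus strand.
Guca1a: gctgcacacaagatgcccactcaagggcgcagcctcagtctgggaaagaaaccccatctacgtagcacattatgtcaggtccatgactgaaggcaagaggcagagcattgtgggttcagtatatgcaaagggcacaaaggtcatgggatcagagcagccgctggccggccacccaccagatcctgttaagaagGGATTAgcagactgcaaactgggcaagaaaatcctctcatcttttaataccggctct
Sag: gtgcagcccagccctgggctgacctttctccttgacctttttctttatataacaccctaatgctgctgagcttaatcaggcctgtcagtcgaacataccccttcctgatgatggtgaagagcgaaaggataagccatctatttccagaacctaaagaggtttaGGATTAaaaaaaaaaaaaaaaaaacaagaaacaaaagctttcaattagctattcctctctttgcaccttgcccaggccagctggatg
Abca4: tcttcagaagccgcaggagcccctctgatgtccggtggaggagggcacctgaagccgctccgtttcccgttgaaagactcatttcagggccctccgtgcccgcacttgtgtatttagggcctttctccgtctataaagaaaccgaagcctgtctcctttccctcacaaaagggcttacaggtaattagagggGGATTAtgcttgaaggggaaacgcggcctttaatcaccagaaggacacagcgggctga

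Each of these windows holds 1 match. Of 7 rod genes called higher with a listed promoter 4 (57.1%) hold the site, and of 20 tested rod genes with a promoter 8 (40%) hold it, against 5.39% of tested genes and 6.38% of all promoters. Guca1a, a relative of Guca1b, rose by 4.04 (adjusted p = 0.000183). Sag, rod arrestin, rose by 3.22 (adjusted p = 0.0021), and Abca4, the retinoid flippase of outer segments, rose by 2.54 (adjusted p = 0.00341, with another probe at 0.47).

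Lists of other neurons had fewer members called or members in both directions. Over all genes 18.1% were higher and 19.1% lower, and the bipolar (20% and 25%) and ganglion cell (15% and 20%) lists lay near those shares. Of 12 cone genes 3 were higher (2 averaged), among them Opn1mw, the M cone pigment (5.87, adjusted p = 2.79e-05), and the cone arrestin gene Arr3 (3.47, adjusted p = 0.00245). Of 20 bipolar genes 4 were higher and 5 lower (3 and 5 averaged). Gng13, a G protein subunit, and Lrtm1 rose by 2.62 and 3.57 (adjusted p = 0.00038 and 9.82e-05), while the factors Isl1 and Lhx4 fell by 3.06 and 3.06 (adjusted p = 0.00257 and 0.00154). Among 19 amacrine and horizontal genes 0 were higher and 5 lower (0 and 3 averaged). Npy, a neuropeptide gene, measured 10.09 and 10.25 at P28, against 13.42 and 13.52 at P7 (difference -3.30, SE 0.58, adjusted p = 0.000361). Of 20 ganglion cell genes 3 were higher and 4 lower (2 and 3 averaged); Thy1, which other cells also express, rose by 4.88 (adjusted p = 2.02e-05, with another probe at 0.34), and Uchl1, a neuronal deubiquitinase, fell by 2.31 (adjusted p = 1.11e-05). Of 27 presynaptic genes 3 were higher and 2 lower (2 and 0 averaged), and Cplx4, a complexin of ribbon synapses, rose by 3.78 (adjusted p = 0.000275).

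The neuron lists varied between Glast+ arrays beyond the P28 and P7 groups. The mean level over the rod list was 12.002 and 11.97 on the P28 arrays, against 10.51 and 9.34 on the P7 arrays, and 13.51 and 12.52 on the P21 arrays. Over the cone list it was 9.32 and 9.26 on the P28 arrays, against 8.75 and 7.81 on the P7 arrays. P7 replicate 1 exceeded P7 replicate 2 in the means of both lists and of the amacrine list (9.91 and 9.05). The median difference from P7 over the rod list was 1.08 at P14, 2.84 at P21 and 1.52 at P28, and over the bipolar list it was 0.43, 1.402 and -0.55, so that P21 stood above P28 in both.

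Vessel genes had the highest median of the 41 lists. Of 29 members 20 were higher and 1 was lower (19 and 0 averaged), with medians of 1.66 at P14, 2.50 at P21 and 2.54 at P28. Cldn5, a tight junction protein of endothelium, measured 14.22 and 14.16 at P28, against 9.39 and 8.90 at P7, 33.1-fold higher (difference 5.05, SE 0.31, adjusted p = 1.4e-08). Icam2, an endothelial adhesion molecule, measured 12.19 and 12.28 at P28, against 7.28 and 7.12 at P7 (adjusted p = 3.91e-06), and Myh11, the myosin of smooth muscle, measured 10.56 and 10.48 at P28, against 6.72 and 6.62 at P7 (adjusted p = 5.39e-07). No P28 array overlapped a P7 array in these 3 genes, as in 2281 of the 2282 genes called higher. Kdr, the main VEGF receptor of endothelium and also known in retinal progenitors, was lower, 11.34 and 11.02 at P28, against 12.51 and 12.66 at P7 (adjusted p = 0.0113, or 0.0546 averaged). The mean level of the vessel list was 10.1 on both P28 arrays, against 7.74 and 7.62 on the P7 arrays.

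Of 21 microglia and macrophage genes 13 were higher and 0 were lower (8 higher averaged, 7 without P7 replicate 1, 3 with median scaling). Tmem119, a microglial surface gene, measured 14.62 and 14.66 at P28, against 9.36 and 9.80 at P7, 33.3-fold higher (difference 5.06, SE 0.33, adjusted p = 2.18e-08). The receptor gene Cx3cr1 rose by 2.14 and the factor Spi1 by 1.97 (adjusted p = 0.00224 and 1.59e-05), while Aif1 measured 9.76 and 9.79 at P28, against 9.61 and 10.07 at P7 and C1qa 13.96 and 13.72 at P28, against 12.57 and 12.98 at P7, which did not pass the test (adjusted p = 0.942 and 0.0737), and another Aif1 probe gave 0.71. This list was highest at P14: its median difference from P7 was 2.52 at P14, 1.74 at P21 and 1.34 at P28. Its mean level was 11.8 and 11.9 on the P28 arrays, against 10.3 and 10.6 on the P7 arrays.

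The remaining lists of other cells were short or mixed, and their counts are read beside 18.1% higher and 19.1% lower over all genes. Of 6 erythroid genes 2 were higher, Hba-a1 and Alas2, and neither call held when averaged (adjusted p = 0.066 and 0.0607). Hba-a1 measured 12.53 and 12.62 at P28, against 10.48 and 7.73 at P7, with the P7 arrays far apart. Of 12 pigment epithelium genes 5 were higher (4 averaged, 3 without P7 replicate 2), among them Rab38 (1.45, adjusted p = 1.86e-05), Pmel (1.39, adjusted p = 0.005) and Rgr. Of 12 lens genes 4 were higher, none of them averaged, and Cryba1 was at least 3.32-fold lower, not found at P28 (adjusted p = 0.000234). Of 14 astrocyte and oligodendrocyte genes 2 were higher and 3 lower, shares near those of all genes. Aldh1l1, an astrocyte enzyme also present in Müller glia, rose by 2.30 (adjusted p = 1.45e-05). The other member called higher was Mag, a call that ended when averaged (adjusted p = 0.045, or 0.138). The oligodendrocyte lineage genes Olig1, Olig2 and Mbp fell by 2.27, 2.15 and 1.84 (adjusted p = 0.000227, 0.000717 and 0.000681).

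**Figure D5:**
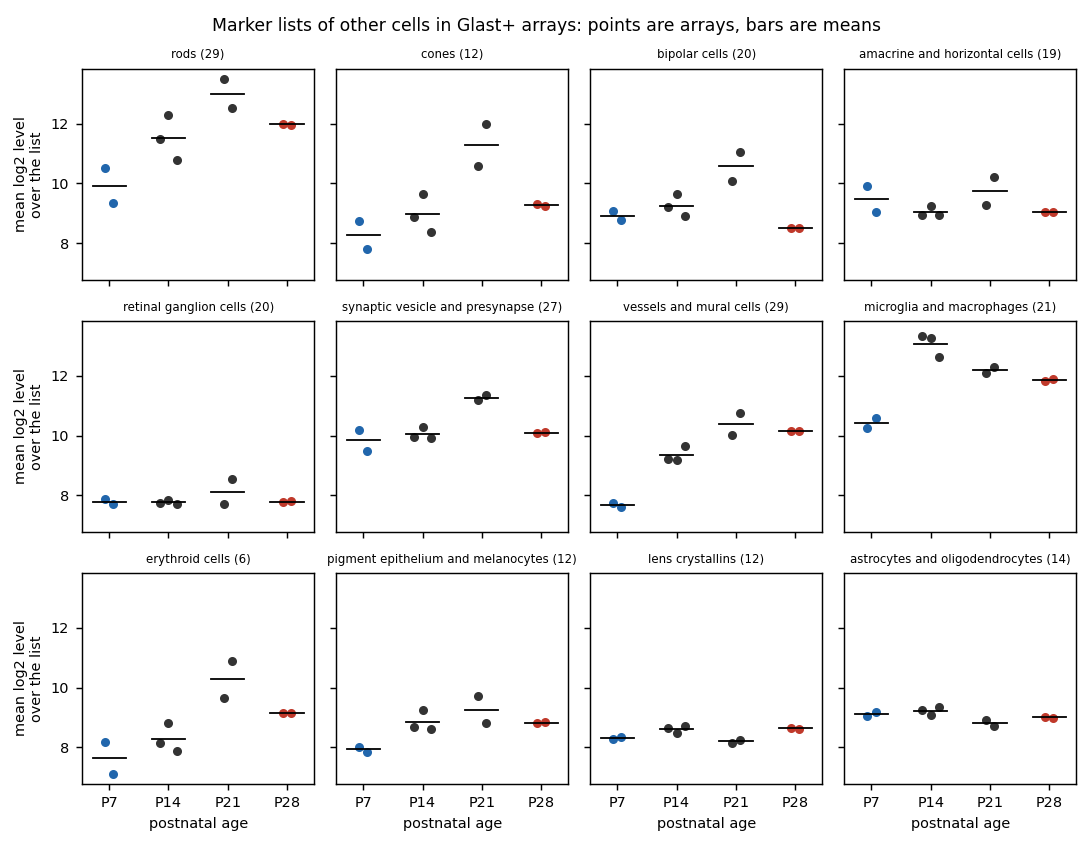
Mean log2 level over the members of 12 lists of other cells (vertical) in each Glast+ array at P7, P14, P21 and P28 (horizontal); points are arrays, bars are group means, red marks P28 and blue marks P7, and the number of members is in brackets. Vessels and microglia lie higher at P28 than at P7 on every array, rods lie higher at P28 with the P7 arrays apart, and bipolar cells lie lowest at P28. P21 is the highest age for rods, cones and bipolar cells.

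The genes with the largest differences came from several of these groups. Among the 10 largest increases, besides Guca1b, Aqp4, Abca8a, Slc24a1 and Opn1mw, Mgp, the matrix Gla protein gene of vessels and cartilage, measured 13.14 and 12.96 at P28, against 6.76 and 6.44 at P7 (difference 6.45, SE 0.44, adjusted p = 4.43e-08). Nr1h4, the bile acid receptor FXR, measured 13.08 and 13.07 at P28, against 7.35 and 7.097 at P7, 57.7-fold higher (difference 5.85, SE 0.45, adjusted p = 1.35e-07), with means of 9.82 at P14 and 10.06 at P21. Tph2, the neuronal tryptophan hydroxylase of serotonin synthesis, was not found on either P7 array, measured 12.28 and 12.25 at P28, against 6.34 and 6.47 at P7, and was at least 58.1-fold higher (adjusted p = 1.07e-08). Also not found at P7 were Scn7a, an atypical sodium channel gene of glia, at least 58.7-fold higher, and Pcolce2, an enhancer of procollagen processing, at least 61.0-fold higher (adjusted p = 1.73e-06 and 2.18e-08), with other probes of these genes at 1.51 and 2.11.

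Among the 10 largest decreases, besides Fabp7, Mycl, Heyl, Sfrp2 and Prc1, Chrna4, a subunit of the nicotinic acetylcholine receptor, measured 7.63 and 7.58 at P28, against 12.44 and 12.45 at P7, 28.7-fold lower (difference -4.84, SE 0.83, adjusted p = 0.000277). St18, a zinc finger factor, measured 7.78 and 7.65 at P28, against 11.67 and 12.51 at P7 (difference -4.38, SE 0.65, adjusted p = 8.65e-05); its mean was 12.03 at P14 and 10.87 at P21. Cdca3, a trigger of mitotic entry, fell by 4.17 and Tmem178 fell by 4.11 (adjusted p = 2.84e-05 and 9.21e-05). Ly6h, a neuronal membrane gene of the Ly6 family, fell by 4.14 by its brightest probe (adjusted p = 3.71e-05), while its 2 other probes gave 0.08 and 0.18.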

How the data were processed

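RNA of sorted mouse retinal cells was amplified, labelled with biotin and hybridised to 1-colour arrays, per the labels' protocols. The deposited scanner tables give, for each of 38880 spots, a foreground and a local background median intensity and a flag, made with GenePix Pro 4.1.1.4 at 635 nm without normalization, per the file headers. The authors also deposited a table of processed intensity values; how it was made is not given in the sources used here.

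From the scanner intensities, 34312 transcript probes were corrected for background (normexp, offset 50), quantile normalized over all 21 arrays and log2 transformed. Probes entered the tests when all arrays of 1 or more of the 8 groups carried no "not found" flag (25264 probes). Probes were named by accession through RefSeq's table for GRCm38.p6 (names and promoters only): 22987 have 1 symbol, 0 have several and 11325 have none. The brightest kept probe stood for each of 12612 genes, of which 4015 have several. A spot at 65535 is saturated. Where a gene was saturated or not found on every array of an age, a fold is a bound, given as "at least", with the dimmer side taken on each array as the higher of its own level and the lowest level of any found probe. For the genes named here this floor did not act, so the bound equals the fold of their measured levels. limma 3.58.1 (R 4.3.3) fitted a mean for each group with 13 residual degrees of freedom, and p-values were adjusted by the Benjamini-Hochberg method over all genes, at a threshold of 0.05. Levels of different probes are not compared, and mean levels over a list are compared only between arrays. The script was tested on simulated data.

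The gene lists, markers and named genes were chosen with earlier results of these data known. Named genes are a set of preset glial and progenitor genes, the 10 largest differences in each direction among genes also called with P28 averaged and with no overlap between the ages, and in each list the 3 members called in each direction with the smallest adjusted p; some further list members were named after their values were seen, and a few named genes are not reported here. Equal replicate numbers did not pair the arrays: the deviations of equal-numbered P28 and P7 arrays from their group means correlated at -0.032. The 19 alternatives cover background, scaling, probe filter, probe summary, source of values, samples in the fit, scan day, pairing and left-out arrays. Figures were drawn with matplotlib 3.10.9.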

Additional observations from a re-analysis of the deposited data

How the results depend on the processing

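With 2 arrays at each age, 1 code on both P28 arrays and a scale that ends at saturation, these data limit what can be said of small differences and of genes near the top of the scale. The count of calls (4691) depended most on which arrays enter: with the P28 arrays averaged to 1 sample it was 2997 (1483 higher, 1514 lower), and with only the Glast+ arrays and P28 averaged, a setting chosen after seeing the data, 2425 (1171 higher, 1254 lower). With only the 4 compared arrays it was 7123 (3477 higher, 3646 lower). Leaving out 1 array gave 3000 to 3297 calls, 1482 to 1621 higher and 1518 to 1693 lower; calls in all were over 1.5 times fewer without P28 replicate 1 (3000) or P28 replicate 2 (3125), and lower calls were also over 1.5 times fewer without P7 replicate 2 (1588). In these fits and the averaged ones a lone sample is assumed to vary like the other groups. Median scaling gave 867 higher and 3160 lower, cyclic loess 1360 lower and 2055 higher, and requiring a 2-fold difference 1536 lower. The replicate block, for numbers that do not pair the arrays, gave 4618 calls, and all other alternatives stayed within 1.5 times of the count above, from 4222 (probes found on all 4 arrays) to 5206 (scan day as a random block).

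Of the results for single genes under the alternatives, 3867 kept direction and side of the threshold, 322 lost the call, 28 gained one and 31 changed sign, none of these passing the test after the change. Of the genes called in the report, Cox5b and Ly6h changed sign: Cox5b was 0.16 with the mean of its probes, and Ly6h was 0.46 from the authors' deposited values and 0.083 with probes found on all 4 arrays. With median scaling Apoe was -0.24, Crx -0.21, Dkk3 -0.26, Dnmt3a -0.066, Gja1 -0.39, Nfia -0.46, Pax6 -0.47, Rax -0.76, Rlbp1 -0.27 and Sox2 -0.21. With cyclic loess Dll4 was 0.15, Mcm4 0.25, Nfix 0.13, Slc1a3 0.74 and Slc2a1 0.31. With the mean of the probes Aif1 was 0.33, Dnmt3a -0.32, Nfia -0.10, Pax6 -0.71 and Sox2 -0.16, and from the authors' deposited values Rax was -0.19 and Slc1a3 0.10. Leaving out 1 array gave Aif1 -0.29 to 0.17, Crx -0.080 to 1.16, Dll4 -0.59 to 0.0016, Nrl -0.24 to 1.84, Rax -0.18 to 0.26 and Slc1a3 -0.15 to 0.077, each changing sign without P7 replicate 2. Relative to all genes, the lists of nuclear factor I, matrix, antioxidant and lipid genes turned to the other side of 0 with median scaling. Among 190 named genes, 56 have other kept probes, 5 of these oppose the brightest by over 0.5 and 17 span over 2. The cause of these changes was not tested.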
